A study of Arabidopsis thaliana with 8 samples.

Results

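Arabidopsis plants that overexpress ThbZIP1 were compared with wild type plants in water, that is, without stress. The comparison holds 4 of the 8 arrays of the series, chosen by their treatment label (H2O): 2 arrays of ThbZIP1 overexpression plants (OE) and 2 arrays of wild type plants of the ecotype Columbia (WT). OE plants came from T3 homozygous lines in the same ecotype, and the labels give neither the number of lines nor the promoter that drives the transgene. All plants were 4 weeks old, were grown at 22 °C with 16 h of light and 8 h of dark, and were harvested 3 h after they had been given water. Whole seedlings, with root and shoot, were pooled before RNA was extracted, so that each value is a mean over all organs. The other 4 arrays, of OE and WT plants given 10 µM abscisic acid (ABA) for 3 h, were used for the estimate of the spread and for a side-by-side reading.

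ThbZIP1 is a basic leucine zipper transcription factor of Tamarix hispida, a woody plant of saline soils. Factors of this family bind DNA as dimers, and in plants they take part in responses to ABA, drought, salt and pathogens. Plants balance growth against defence: salicylic acid, jasmonate and ethylene switch on defence genes, cytokinin, auxin, gibberellin and brassinosteroids act on cell division and expansion, and photosynthesis genes stand for the leaf cells that feed both.

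The arrays carried 45220 spots, and no spot of a gene probe was saturated. Between 68.1% and 72.1% of the gene probes of an array were well above background. The OE pair correlated at 0.982 and the WT pair at 0.971, against 0.907 to 0.925 between OE and WT. The first WT array had 1148 outlier spots, against 6 to 11 on the other water arrays, and 1134 tested probes lacked a value on at least 1 water array. All OE arrays lay on 1 slide with 1 scan day and 1 version of the design file, and the WT arrays in water lay on another slide with another scan day and version, so that genotype cannot be told apart from slide, scan day and design version in any result given here. One free-text label field calls the OE plants AtbHLH112 and the WT plants a SALK insertion line, against the titles, source names and genotype fields used here, and no probe is named for ThbZIP1, so that the overexpression was not checked on the arrays. The 2 replicates are called biological, and the methods describe replicates as portions of the seedlings harvested in a treatment, so that p-values measure the spread between such portions, not between separate growth experiments.

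Of 31267 tested probes, 5953 (19.0%) were called between OE and WT in water, 2641 higher (8.45%) and 3312 lower (10.6%), where a call means an adjusted p under 0.05 and at least a 2-fold difference (limma, Benjamini-Hochberg over all tested probes). Counted once per locus tag, 3745 of 19477 genes were called (19.2%), 1922 higher (9.87%) and 1823 lower (9.36%). The median log2 difference over all genes was 0.06, and the median standard error (SE) was 0.21. Past 4-fold, 529 genes were higher and 728 were lower, and past 16-fold 48 were higher and 121 were lower. Thus the large differences were more often falls than rises, whereas the numbers of calls were close. Without OE replicate 2 or without WT replicate 2 fewer probes were called in each direction. No probe called with all arrays was called in the opposite direction there. The 2 arrays of OE did not overlap with the 2 arrays of WT for 14547 genes (74.7%).

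The 4 pathways moved in different ways. In defence 38 of 104 tested genes were lower in OE and 4 were higher, with a median log2 difference of -0.74. These were 36.5% lower and 3.85% higher, against 9.36% and 9.87% of all genes. In hormone synthesis and signalling 32 of 199 genes were lower and 9 were higher (median -0.41), 20.6% in all against 19.2% of all genes, a share near the background. In the cell cycle 77 of 136 genes were higher and 0 were lower (median 1.18, limma), with 2 genes lower at an unadjusted p under 0.05, both by less than 2-fold. The share higher was 56.6%, against 9.87% of all genes. In photosynthesis 6 of 98 genes were higher and 3 were lower (median 0.15), 9.18% in all against 19.2% of all genes. In these bulk samples a difference in the number of cells of a type and one in RNA per cell cannot be told apart.

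**Figure D1:**
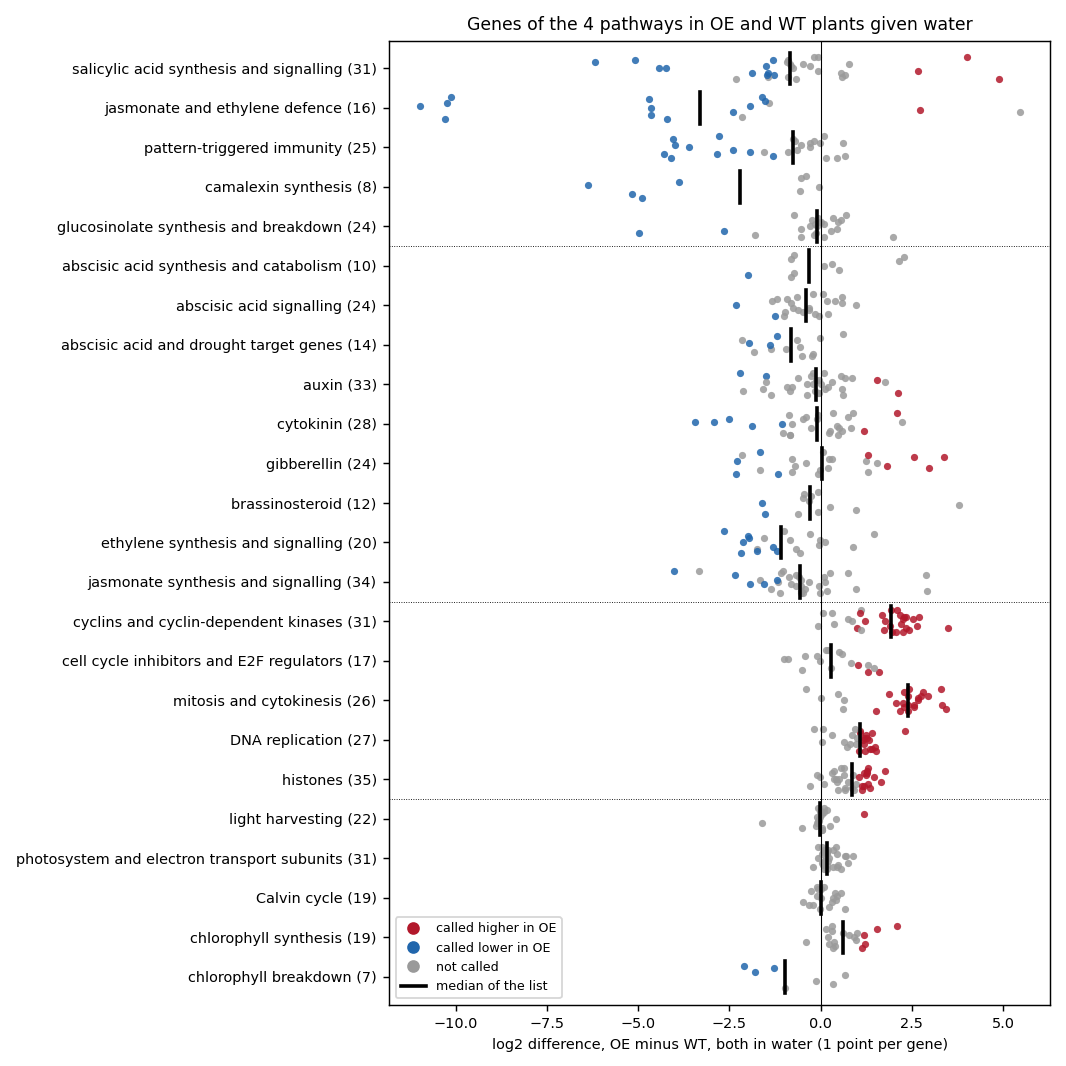
Log2 difference of OE minus WT in water (x axis) of each tested gene, 1 point per gene, by gene list (y axis, number of tested genes in brackets), with the median of each list as a black bar. Red points were called higher in OE, blue points were called lower and grey points were not called. Most points of the cyclin and mitosis lists lie to the right of 0 with medians of 1.94 and 2.39, the jasmonate and ethylene defence list lies to the left with a median of -3.31, and the Calvin cycle list lies on 0.

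Salicylic acid is the hormone of defence against pathogens that feed on living cells, and its output genes PR1, BGL2 and PR5 were much lower in OE plants. WRKY54, which salicylic acid also induces, was higher, and so were NIMIN1 and WRKY38 of the same list, as given below. Of 31 tested genes of salicylic acid synthesis and signalling, 10 were lower and 3 were higher (median -0.83). These were 32.3% lower, against 9.36% of all genes, and 9.68% higher, a share near the background of 9.87%. PR1, the classical marker of this pathway, had a scaled signal of 2.19 and 0.317 on the OE arrays, against 23.4 and 158 on the WT arrays, where a scaled signal of 100 is the 75th percentile of an array and 1 of the OE arrays was not well above background. Its groups did not overlap (log2 difference -6.19, SE 1.74, adjusted p = 0.0420), but the 2 arrays within each group differed several-fold and the call was lost without any 1 of the 4 water arrays, over which the difference ran from -7.59 to -4.79. BGL2 (PR2), a beta-1,3-glucanase that attacks fungal cell walls, was at 92.0 and 36.5 in OE, against 1299.7 and 3032 in WT, a 34.2-fold lower level (-5.10, SE 0.67, adjusted p = 0.00572). PR5, a thaumatin-like protein, was at 100.3 and 153 in OE, against 1399.9 and 3901 in WT (-4.24, SE 0.55, adjusted p = 0.00554). Both kept their calls without each water array. AT4G10500 was at 5.45 and 3.17 in OE, against 89.5 on the 1 WT array with a value (-4.43, SE 0.47, adjusted p = 0.00533).

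Several landmark genes that act before or in the sensing of salicylic acid were not called. EDS16, the isochorismate synthase that makes it, was at 25.2 and 33.5 in OE, against 38.1 and 78.0 in WT, and was not called (-0.91, SE 0.36, adjusted p = 0.101). EDS1, a lipase-like protein upstream of it, was at 86.6 and 64.3 in OE, against 75.2 and 94.1 in WT, and overlapped between the groups. Its partner PAD4 was at 151 and 94.3 in OE, against 188 and 233 in WT, and missed the threshold (-0.81, SE 0.25, adjusted p = 0.0544). NPR1, the coactivator through which salicylic acid acts, was at 136 and 108 in OE, against 141 and 154 in WT (log2 difference -0.29, adjusted p = 0.246). Other regulators of the list were called lower, all of them picked after their values were seen. SAG101, another partner of EDS1, was at 85.6 and 75.1 in OE, against 213 and 225 in WT (-1.45, SE 0.13, adjusted p = 0.00286), while 1 of its other probes was not called. NPR3, a receptor of salicylic acid, had a log2 difference of -1.30 (SE 0.12). Both SAG101 and NPR3 kept their calls without each water array. SARD1 (-1.27, SE 0.27, adjusted p = 0.0185) and CBP60G (-1.48, SE 0.38, adjusted p = 0.0330), transcription factors that switch EDS16 on, were called lower and lost without OE replicate 2 or WT replicate 2. FMO1, which makes the signal of systemic resistance, was at 2.50 and 0.882 in OE, with 1 array not well above background, against 4.91 and 6.10 in WT (-1.88, SE 0.55, adjusted p = 0.0476), and was lost without OE replicate 2 or either WT array.

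The 3 members called higher are regulators, and they went against the falls of PR1, BGL2 and PR5. Their part in those falls was not tested. NIMIN1, which binds NPR1 and represses it, was at 146 and 26.2 in OE, against 2.88 and 1.54 in WT (4.87, SE 0.81, adjusted p = 0.0104). WRKY38, a repressor of basal defence, was at 52.9 and 26.9 in OE, against 2.48 and 2.19 in WT (4.02, SE 0.58, adjusted p = 0.00723). WRKY54, a transcription factor induced by salicylic acid, was at 121 and 58.3 in OE, against 13.9 and 12.7 in WT (2.66, SE 0.52, adjusted p = 0.0154). On the arrays of all 3 genes OE replicate 1 was above OE replicate 2, and WRKY54 lost its call without OE replicate 1 (2.13) or either WT array (2.726 and 2.597).

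Jasmonate and ethylene together switch on defence against pathogens that kill cells, and this list held the largest falls of the 4 pathways. Of 16 tested genes, 12 were lower and 1 was higher in OE (median -3.31, limma), with 2 higher at an unadjusted p under 0.05. The called shares were 75% lower and 6.25% higher, against 9.36% and 9.87% of all genes. PDF1.2, a plant defensin and the standard marker of this branch, was at 1.61 and 20.7 in OE, against 3945 and 13316 in WT (-10.29, SE 1.25, adjusted p = 0.00485), and 1 of its OE arrays was not well above background. The closely related PDF1.2c was at 2.66 and 15.1 in OE, against 3068 and 18989 in WT (-10.23, SE 1.22, adjusted p = 0.00459). PDF1.3 was at 2.85 and 18.22 in OE, against 3229.6 and 20330.0 in WT (-10.13, SE 1.24, adjusted p = 0.00492). These defensin genes are near-identical copies, and their probes may share signal, so that they count as 1 observation at most. On all 3 probes OE replicate 2 lay above OE replicate 1, and WT replicate 2 above WT replicate 1.

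Other defence proteins of the branch fell as well. HCHIB (PR3), a basic chitinase, was at 29.6 and 32.7 in OE, against 475 and 1392 in WT (-4.71, SE 0.65, adjusted p = 0.00642). PR4, a hevein-like protein, was at 574 and 585 in OE, against 10218 and 20851 in WT (-4.66, SE 0.60, adjusted p = 0.00549). The OE arrays of PR4 were nearly equal, and the groups were far apart. The transcription factors that join the signals of both hormones fell too. ERF1 was at 6.47 and 3.41 in OE, against 83.8 and 169 in WT (-4.66, SE 0.57, adjusted p = 0.00485). ORA59 was at 18.19 and 15.8 in OE, against 157 and 633 in WT (-4.22, SE 0.66, adjusted p = 0.00900), and it was lost without OE replicate 2, at -4.11, while it was -3.21 without WT replicate 2 and -5.22 without WT replicate 1, with its call kept. The 1 member called higher was THI2.2, a thionin, at 43.9 and 32.0 in OE, against 8.74 and 3.67 in WT (2.73, SE 0.73, adjusted p = 0.0361), a call that was lost without any 1 of the water arrays, over which it ran from 2.101 to 3.35. Another member, not called, had the highest log2 difference of the list, 5.47, with an unadjusted p under 0.05 (limma).

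Pattern-triggered immunity is the response to common microbial molecules. Of 25 tested genes of this list, 10 were lower and 0 were higher in OE (median -0.75, limma), with 1 higher at an unadjusted p under 0.05. The share lower was 40%, against 9.36% of all genes. FLS2, the receptor of bacterial flagellin, was at 92.7 and 91.5 in OE, against 157 and 142 in WT, a difference that passed the p but not the fold (-0.70, SE 0.16, adjusted p = 0.0242). FRK1, a receptor kinase gene that responds to flagellin, was at 3.14 and 8.88 in OE, against 177 and 59.1 in WT (-4.28, SE 0.66, adjusted p = 0.00853). WRKY40, a transcription factor of early defence, was at 14.1 and 14.8 in OE, against 174 and 298 in WT (-3.98, SE 0.58, adjusted p = 0.00750). CYP81F2, an enzyme of indole glucosinolate defence, was at 20.4 and 17.3 in OE, against 221 and 478 in WT (-4.11, SE 0.37, adjusted p = 0.00278). WRKY33, which drives camalexin synthesis and was picked after its values were seen, was at 66.4 and 39.7 in OE, against 420.0 and 936 in WT (-3.61, SE 0.44, adjusted p = 0.00486). All 4 called genes kept their calls without each water array, as did 8 of the 10 in this list.

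Camalexin, the main antimicrobial compound of Arabidopsis, is made from tryptophan, and 4 of 8 tested genes of its synthesis were lower in OE (median -2.22), with all 8 means below those of WT. The share called lower was 50%, against 9.36% of all genes. PAD3, the enzyme of the last step, was at 8.38 and 5.18 in OE, against 126 and 444 in WT (-5.16, SE 0.82, adjusted p = 0.00908), and was lost without OE replicate 2, at -4.82. GSTF6, a glutathione transferase of the pathway, was at 166 and 182 in OE, against 3841 and 6976 in WT (-4.90, SE 0.34, adjusted p = 0.00165). CYP71A13, which acts before PAD3, was not well above background on either OE array and was at least 32.9-fold lower there, against the lowest signal that counts as above background, with measured signals of 0.339 and 0.575 in OE and 30.1 and 44.9 in WT (adjusted p = 0.00145). By contrast, CYP79B2, which feeds both camalexin and indole glucosinolates and was picked after its values were seen, was at 602 and 532 in OE, against 655 and 519.8 in WT (log2 difference -0.04, adjusted p = 0.932).

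The glucosinolates are sulfur compounds that deter herbivores. Of 24 tested genes of their synthesis and breakdown 2 were lower, 8.33% against 9.36% of all genes, and 0 were higher (median -0.09, limma), with 1 higher at an unadjusted p under 0.05. MYB28, the main regulator of the aliphatic branch, was at 91.7 and 57.8 in OE, against 55.5 and 49.8 in WT (0.47, SE 0.30, adjusted p = 0.269). MYB51, which regulates the indole branch and responds to pathogens, was at 40.8 and 30.7 in OE, against 156 and 316 in WT (-2.65, SE 0.36, adjusted p = 0.00646). The other call was MYB122, of the same branch and outside the naming rule, which was not well above background in OE and was at least 8.07-fold lower, with measured signals of 0.291 and 0.277 in OE and 24.1 and 3.38 in WT. Its call was lost without either OE array or WT replicate 1, over which its difference ran between -5.02 and -3.57.

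Of the 42 called defence genes, 24 kept their call without each of the 4 water arrays, and none turned its sign. The count was 29 without OE replicate 2, and it was 25 with normexp, a background correction that shrinks low signals. Genes of leaf senescence moved with this group, as given below, and their part in it was not tested.

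**Figure D2:**
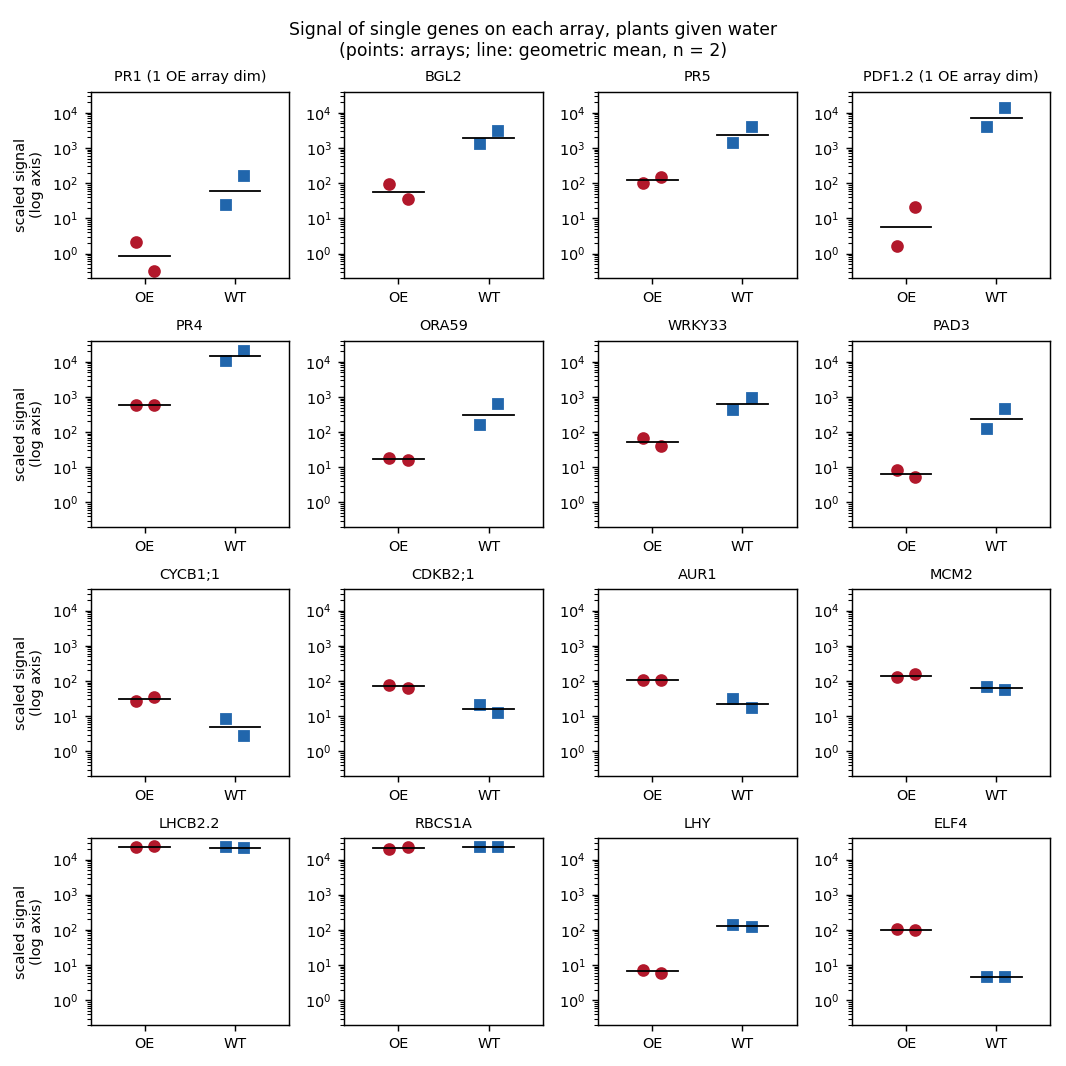
Scaled signal (log axis, 100 is the 75th percentile of an array) of 16 single genes on the arrays of plants given water, with OE as red circles left of WT as blue squares and a line at the geometric mean of the 2 arrays (dim in a title: not well above background). For the 8 defence genes of the upper rows all OE points lie below all WT points, for the 4 cell cycle genes of the third row they lie above, LHCB2.2 and RBCS1A lie at the same level in both, and LHY and ELF4 of the clock lie apart in opposite directions. The 8 defence genes were all called lower. Uncalled landmarks such as EDS1 and NPR1, and the rises NIMIN1, WRKY38 and WRKY54, are not plotted. WRKY33, AUR1 and MCM2 were picked after their values were seen. The groups did not overlap for 74.7% of all genes.

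The ethylene genes were the hormone group with the most falls. Of 20 tested genes of ethylene synthesis and signalling, 8 were lower and 0 were higher in OE (median -1.10, limma, 0 higher also at an unadjusted p under 0.05). The share lower was 40%, against 9.36% of all genes. ACS6, which makes the precursor of ethylene under stress, was at 28.5 and 39.8 in OE, against 149 and 296 in WT (-2.64, SE 0.41, adjusted p = 0.00880). ERS1, an ethylene receptor, was at 158 and 128 in OE, against 606 and 536 in WT (-2.001, SE 0.20, adjusted p = 0.00338). CTR1, the kinase that keeps the pathway off when no ethylene is bound, was at 47.7 and 42.4 in OE, against 199 and 193 in WT (-2.12, SE 0.17, adjusted p = 0.00217). Both repressing parts (ERS1 and CTR1) and the synthesis gene thus fell together. Within the list 7 of the 8 calls held without each water array, the exception being ACS2, a synthase gene at least 1.45-fold lower in OE, where it was not well above background, which was lost without OE replicate 2 or WT replicate 2, at -1.72 and -1.93.

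Jasmonate synthesis and signalling changed in fewer genes, and 5 of 34 tested genes were lower with 0 higher (median -0.57, limma), while 1 was higher at an unadjusted p under 0.05. This was 14.7% called, against 19.2% of all genes. AOC1, an allene oxide cyclase of jasmonate synthesis, was at 893 and 352 in OE, against 4489 and 1799.8 in WT (-2.34, SE 0.62, adjusted p = 0.0356). AOC2, another cyclase, was at 283 and 162 in OE, against 1288 and 520.3 in WT (-1.93, SE 0.53, adjusted p = 0.0398). Both were lost without OE replicate 2 (-1.67 and -1.53) or WT replicate 1 (-1.68 and -1.28), and AOC2 also without OE replicate 1 (-2.34). CYP94B3, which oxidises the active jasmonate and so inactivates it, was at 6.83 and 10.1 in OE, against 194 and 93.2 in WT (-4.01, SE 0.63, adjusted p = 0.00884), and kept its call without each array.

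The upstream factors and markers LOX2, MYC2, JAZ10 and VSP2 were not called. JAZ6, another gene of the JAZ repressor family, and ACX1, of jasmonate synthesis, were called lower (-1.55 and -1.21). Both were picked after their values were seen. With 1 water array left out, JAZ6 ran from -1.92 to -1.18 and ACX1 from -1.495 to -0.92. JAZ6 lost its call without either OE array or WT replicate 2, and ACX1 without OE replicate 2 or WT replicate 1. LOX2, a lipoxygenase of jasmonate synthesis, was at 12752 and 7744 in OE, against 14412 on the 1 WT array with a value (log2 difference -0.54, adjusted p = 0.297). MYC2, the main transcription factor of the response, was at 701 and 454 in OE, against 335 on the 1 WT array with a value (0.75, adjusted p = 0.297). JAZ10, a repressor that jasmonate induces, was at 26.2 and 33.4 in OE, against 82.8 and 47.2 in WT (-1.08, adjusted p = 0.238). VSP2, a storage protein and marker of the wound branch, was at 4897 and 2114 in OE, against 2623 and 69.0 in WT, and its 2 WT arrays differed by far more than the groups did (2.92, SE 1.61, adjusted p = 0.209). This wide spread leaves the wound branch without a call in either direction.

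ABA is the hormone most tied to the known roles of this factor family. In ABA synthesis and catabolism 1 of 10 tested genes was lower, in ABA signalling 2 of 24 were lower, and of the genes that ABA and drought switch on 3 of 14 were lower, with 0 higher in all 3 lists (limma, medians -0.32, -0.39 and -0.81). The shares called lower were 10.0%, 8.33% and 21.4% in the same order, against 9.36% of all genes, so that the first pair lay near the background. At an unadjusted p under 0.05, 2, 1 and 0 genes of these lists were higher. CYP707A3, which breaks ABA down, was at 25.6 and 35.7 in OE, against 109 and 130.4 in WT (-1.98, SE 0.34, adjusted p = 0.0112), a call lost without WT replicate 2, at -1.85. NCED3, the rate-limiting enzyme of ABA synthesis under drought, was at 13.7 and 21.1 in OE, against 37.3 and 21.6 in WT, and was not called (-0.74, SE 0.32, adjusted p = 0.124).

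Among the signalling genes, the receptor gene PYL5 was at 49.9 and 38.0 in OE, against 212 and 226 in WT (-2.33, SE 0.25, adjusted p = 0.00368). ABI1, a phosphatase that represses ABA signalling, was at 363 and 329.6 in OE, against 658 and 567 in WT, past the p but not the fold (-0.82, SE 0.18, adjusted p = 0.0211). ABF4, a basic leucine zipper factor of Arabidopsis that activates ABA genes, was at 214 and 233 in OE, against 465 and 600.4 in WT (-1.24, SE 0.16, adjusted p = 0.00559). PYL5 and ABF4 kept their calls without each water array. The target gene LTI78 (RD29A) was at 67.6 and 149 in OE, against 1265 and 158 in WT, where the first WT array stood far above the other 3 (-2.16, SE 0.96, adjusted p = 0.134). RD20, a caleosin gene of the drought response, was at 271 and 248 in OE, against 1873 and 556 in WT (-1.98, SE 0.54, adjusted p = 0.0397), with the same array highest, and was lost without either OE array, at -2.04 and -1.91. The homeobox genes HB-7 and HB-12, which ABA induces, had log2 differences of -1.202 (adjusted p = 0.00873) and -1.38 (adjusted p = 0.00744), and HB-12 kept its call without each array while HB-7 lost it without OE replicate 2 or WT replicate 1, at -1.13 and -0.97.

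Gibberellin genes moved both ways, with 5 of 24 tested genes higher and 4 lower (median 0.03). This was 37.5% called, against 19.2% of all genes. ATGA2OX1, which inactivates gibberellins, was at 31.3 and 10.73 in OE, against 1.56 and 1.98 in WT (3.38, SE 0.58, adjusted p = 0.0111). GA2OX6, an enzyme of the same function, went the other way, at 10.6 and 18.6 in OE, against 73.3 and 67.2 in WT (-2.32, SE 0.34, adjusted p = 0.00742). GID1B, a gibberellin receptor, was at 44.4 and 41.1 in OE, against 199 and 218 in WT (-2.29, SE 0.15, adjusted p = 0.00156). RGL2, a DELLA protein that represses gibberellin responses, was at 37.3 and 57.1 in OE, against 5.16 and 6.78 in WT (2.96, SE 0.32, adjusted p = 0.00367). These 4 genes kept their calls without each water array.

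The remaining named gibberellin genes were less firm. GA3OX1, which makes active gibberellins, was at 59.4 and 54.3 in OE, against 249 and 128 in WT (-1.65, SE 0.35, adjusted p = 0.0185), and was lost without either OE array, at -1.72 and -1.59. GASA4, a small protein gene that gibberellin induces, was at 1196 and 1149.9 in OE, against 201 on the 1 WT array with a value (2.55, SE 0.46, adjusted p = 0.0176), and was lost without either OE array, at 2.52 and 2.58, with no value without WT replicate 2. GA20OX1, an enzyme of an earlier step, was at 44.8 and 24.9 in OE, against 12.6 and 14.7 in WT, and was not called (1.29, SE 0.84, adjusted p = 0.275).

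Of 28 tested cytokinin genes 5 were lower and 2 were higher (median -0.10), 25% in all against 19.2% of all genes. The falls included oxidases, which break cytokinin down. CKX5 was at 13.7 and 24.6 in OE, against 138 and 138 in WT (-2.91, SE 0.39, adjusted p = 0.00625). CKX1 was at 14.9 and 13.3 in OE, against 65.8 and 40.2 in WT (-1.87, SE 0.26, adjusted p = 0.00690). CKX6 was at 102 and 99.9 in OE, against 176 and 251 in WT (-1.05, SE 0.21, adjusted p = 0.0164), a call lost without either OE array (-1.07 and -1.04) or WT replicate 2 (-0.80). Thus 3 of the 6 tested oxidase genes fell, and CKX5 and CKX1 kept their calls without each array. The receptor gene WOL (AHK4) was at 96.7 and 82.1 in OE, against 46.1 and 33.6 in WT (1.18, SE 0.34, adjusted p = 0.0454), a call lost without any 1 of the 4 arrays (0.95 to 1.41).

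Response regulators of the A type are induced by cytokinin and serve as its readout. ARR15 was at 44.6 and 85.1 in OE, against 15.8 and 13.4 in WT (2.09, SE 0.52, adjusted p = 0.0302), and was lost without OE replicate 2 (1.62) or either WT array (2.21 and 1.97). RR5 (ARR5) was at 62.5 and 73.6 in OE, against 39.6 and 37.2 in WT, with no call (log2 difference 0.82, adjusted p = 0.132). ARR7 was at 139 and 237 in OE, against 169.8 and 226 in WT, and the groups overlapped. RR17, another regulator of this type picked after its values were seen, was not well above background in OE and was at least 5.92-fold lower there, with measured signals of 0.364 and 1.03 in OE and 6.995 and 6.26 in WT (adjusted p = 0.00886). IPT7, a cytokinin synthesis gene picked in the same way and likewise not above background in OE, was at least 3.67-fold lower, with measured signals of 1.06 and 0.490 in OE and 3.83 and 4.40 in WT (adjusted p = 0.00751). RR17 and IPT7 kept their calls without each array.

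Auxin genes gave 2 rises and 2 falls among 33 tested (median -0.13), and none of the 4 held without every array. IAA6, an auxin-induced repressor gene, was at 52.5 and 49.9 in OE, against 8.66 and 15.8 in WT (2.13, SE 0.55, adjusted p = 0.0334), and ran from 1.699 to 2.56 when 1 array was left out, with no call in any of them. IAA14, a repressor of root branching, was at 32.8 and 54.3 in OE, against 12.1 and 17.45 in WT (1.54, SE 0.29, adjusted p = 0.0147), and was lost without OE replicate 2 (1.18) or WT replicate 1 (1.27). IAA2 fell (log2 difference -1.51, adjusted p = 0.00979). WES1, which ties auxin to amino acids, was at 20.0 and 25.6 in OE, against 95.5 and 113 in WT (adjusted p = 0.0129). IAA2 was lost without OE replicate 2 (-1.56), and WES1 without either OE array (-2.02 and -2.38) or WT replicate 2 (-2.08). IAA19, a marker of auxin response in growing stems, was at 98.4 and 104 in OE, against 82.2 and 153 in WT, and overlapped between the groups, and GH3.3 was not called (-1.59, adjusted p = 0.0714). In all 12.1% of the auxin genes were called, against 19.2% of all genes, a share below the background.

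For brassinosteroids 2 of 12 tested genes were lower and 0 were higher (median -0.29, limma), with 2 higher at an unadjusted p under 0.05. This was 16.7% called, against 19.2% of all genes, a share near the background. ROT3, a synthesis gene that acts on leaf length, was at 13.7 and 14.3 in OE, against 47.2 and 39.2 in WT (-1.62, SE 0.27, adjusted p = 0.0101), lost without OE replicate 2 at -1.66. BKI1, which holds the receptor inactive, was at 7.03 and 7.87 in OE, against 22.7 and 20.4 in WT (-1.53, SE 0.24, adjusted p = 0.00880). DWF4, the rate-limiting synthesis enzyme, was at 58.2 and 69.7 in OE, against 37.6 and 28.7 in WT, and missed the fold (0.96, SE 0.19, adjusted p = 0.0163). Over all hormone lists 23 of the 41 called genes kept their call without each water array, none turned its sign, and the count was 24 without OE replicate 2 and 18 with normexp.

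The calls of the cell cycle were all rises and covered 77 of 136 tested genes (56.6%), against 9.87% of all genes. Cyclins and their kinases drive the cycle, and 23 of 31 were higher in OE with a median of 1.94. CYCB1;1, a cyclin of the entry into mitosis, was at 27.5 and 33.9 in OE, against 8.16 and 2.78 in WT (2.68, SE 0.62, adjusted p = 0.0245). CYCD3;1, which links cytokinin and sugar to division, was at 89.4 and 118 in OE, against 34.1 and 14.7 in WT (2.195, SE 0.50, adjusted p = 0.0238). CDKB2;1, a plant-specific kinase of mitosis, was at 78.7 and 64.7 in OE, against 20.9 and 11.9 in WT (2.18, SE 0.43, adjusted p = 0.0165). The OE arrays of these genes were close to each other, while WT replicate 2 lay below WT replicate 1 in all 3. All 3 lost their calls without either OE array or WT replicate 2, with the lowest values 1.905 for CYCB1;1, 1.59 for CYCD3;1 and 1.77 for CDKB2;1, all without WT replicate 2. CDC2 (CDKA;1), the kinase that is present also in cells that do not divide, was at 184 and 150.3 in OE, against 149 and 168 in WT, and overlapped between the groups (0.07, adjusted p = 0.772).

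Other cyclins rose too. CYCA3;1 and CYCA3;2, cyclins of the S phase picked after their values were seen, had log2 differences of 1.09 (SE 0.23, adjusted p = 0.0202) and 1.00 (SE 0.18, adjusted p = 0.0117). Both were lost without OE replicate 2 (0.87 and 0.96) or WT replicate 1 (1.11 and 0.85), and CYCA3;1 also without WT replicate 2 (1.06), while the other probe of CYCA3;2 was not called. CYCA1;1 was at 71.1 and 80.8 in OE, against 19.5 and 8.75 in WT (2.54, SE 0.47, adjusted p = 0.0137), and CYC1BAT (CYCB1;2) had a log2 difference of 2.65 (adjusted p = 0.0175). CYCA1;1 was lost without OE replicate 2 (2.44), and CYC1BAT without either OE array (2.76 and 2.53) or WT replicate 2 (1.97). The inhibitors and regulators moved little, with 3 of 17 higher and 0 lower (median 0.29, limma), and 2 lower at an unadjusted p under 0.05. This was 17.65% called, against 19.2% of all genes, a share near the background. DEL1, an atypical factor of the E2F family that delays the switch from division to endoreduplication, was at 18.1 and 20.08 in OE, against 5.72 and 7.03 in WT (1.59, SE 0.23, adjusted p = 0.00719). WEE1, a kinase that stops the cycle after DNA damage, was at 6.14 and 7.49 in OE, against 2.33 and 3.24 in WT (1.3, SE 0.26, adjusted p = 0.0170), and ICK5 (KRP7), an inhibitor of cyclin-dependent kinases, had a log2 difference of 1.01 (adjusted p = 0.0125). DEL1 kept its call without each array, while WEE1 lost it without OE replicate 2 (1.16) or WT replicate 1 (1.06), and ICK5 without OE replicate 2 (0.81) or WT replicate 2 (0.94).

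Genes of mitosis and cytokinesis had the highest share of rises, 21 of 26, and the highest median of the cell cycle lists (2.39). SYP111 (KNOLLE), the syntaxin that fuses vesicles into the new cell plate, was at 357 and 432 in OE, against 39.4 on the 1 WT array with a value (3.32, SE 0.57, adjusted p = 0.0153). PLE, a microtubule bundling protein of the division plane, was at 36.9 and 43.2 in OE, against 7.17 and 2.33 in WT (3.29, SE 0.61, adjusted p = 0.0133). 3xHMG-box2, which binds mitotic chromosomes, was at 232 and 288 in OE, against 23.9 on the 1 WT array with a value (3.44, SE 0.49, adjusted p = 0.0102). SYP111, PLE and 3xHMG-box2 belong to dividing cells. For SYP111 and 3xHMG-box2 the WT level rests on WT replicate 2 alone, the array with the lowest values of this list, so that they have no value without it, and PLE kept its call there at 2.48. All 3 were lost without OE replicate 2 (3.18, 3.17 and 3.28). AUR1, an Aurora kinase picked after its values were seen, was at 109 and 109 in OE, against 29.9 and 17.1 in WT (2.27, SE 0.34, adjusted p = 0.00822), and kept its call without each array.

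DNA replication rose by less, with 16 of 27 genes higher and a median of 1.08. MCM5, part of the replicative helicase, was at 118 and 150.2 in OE, against 72.1 and 56.0 in WT (1.07, SE 0.25, adjusted p = 0.0240). PCNA1, the sliding clamp, was at 107.1 and 118 in OE, against 42.8 and 35.9 in WT (1.52, SE 0.27, adjusted p = 0.0125). CDT1B, which loads the helicase, had the largest rise of the list, at 16.1 and 21.8 in OE, against 5.01 and 2.89 in WT (2.3, SE 0.44, adjusted p = 0.0150). TSO2, a ribonucleotide reductase subunit that makes DNA precursors, was at 974 and 1347 in OE, against 454 and 366 in WT (1.49, SE 0.30, adjusted p = 0.0166). MCM2, another helicase part picked after its values were seen, was at 126 and 157 in OE, against 69.3 and 54.4 in WT (1.2, SE 0.26, adjusted p = 0.0210). All 16 calls of this list were lost without OE replicate 2 and all 16 without WT replicate 2, the named ones at values between 0.89 and 2.08.

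Histones package the new DNA, and 14 of 35 genes were higher (median 0.86). HTA10, a histone H2A, was at 451 and 515 in OE, against 131 and 156 in WT (1.75, SE 0.16, adjusted p = 0.00271). HTA11, a variant of the H2A.Z type, was at 433 and 548 in OE, against 162 and 147 in WT (1.66, SE 0.25, adjusted p = 0.00849). The H3 gene AT1G09200 was at 1031 and 1361 in OE, against 530.0 and 519.5 in WT (1.17, SE 0.20, adjusted p = 0.0110). The H3 gene AT5G10400 was at 689 and 1019 in OE, against 329 and 282 in WT (1.46, SE 0.26, adjusted p = 0.0126). HTA10 kept its call without each array, HTA11 (1.49), AT1G09200 (0.97) and AT5G10400 (1.18) lost it without OE replicate 2, and AT5G10400 also without WT replicate 2 (1.35). Histone genes of 1 class are near-identical, so that their probes may share signal and the 14 calls are not 14 independent ones.

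The direction of the cell cycle genes held without each water array, with a median log2 difference between 0.98 and 1.37, but the number of calls did not. It was 48 without OE replicate 1, 9 without OE replicate 2 (8 higher and 1 lower), 61 without WT replicate 1 and 21 without WT replicate 2 (20 higher and 1 lower), and 8 of the 77 genes were called in all 4. Under normexp 20 genes were called. The median deviation of the mitosis list from its own mean over the 4 arrays was 1.11 and 1.16 in OE. It was -0.55 and -1.76 in WT, so that for this list the OE arrays were alike and the WT arrays were not. Over all cell cycle lists the same measure was 0.41 and 0.78 in OE, against -0.51 and -0.58 in WT. There the WT arrays were the closer pair.

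**Figure D3:**
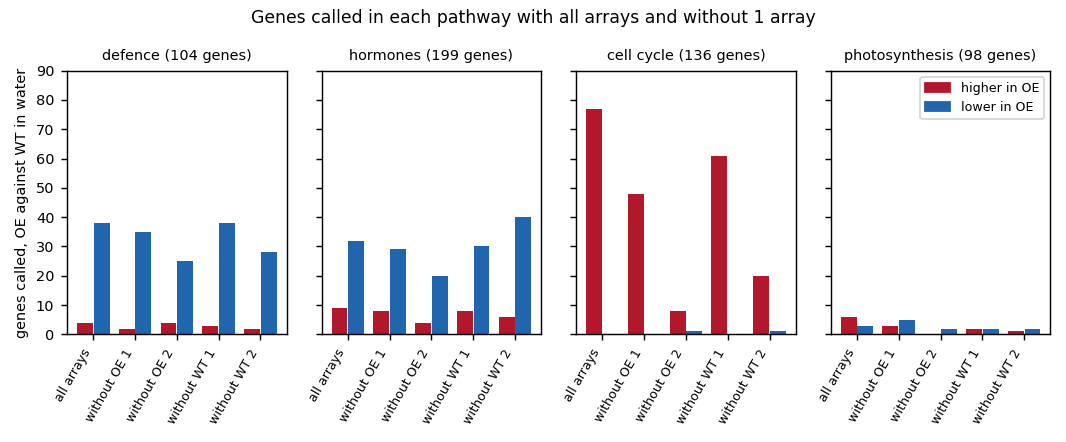
Number of genes called higher (red) and lower (blue) in OE than in WT in water (y axis, from 0) for each pathway, with all arrays and without 1 of the 4 water arrays (x axis). The cell cycle bar of 77 rises stands at 8 without OE replicate 2 and at 20 without WT replicate 2, while the falls in defence stand between 25 and 38 in all 5 settings.

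Markers of organs were read beside this group, since whole seedlings can differ in their stage. Of 10 flower genes 8 were tested, and all 8 had a higher mean in OE (3 called, median 3.59), with 37.5% called, against 19.2% of all genes. Sums over these 8 genes were 192 and 371 in OE, against 42.6 and 11.6 in WT. All 8 were well above background on both OE arrays, but 3 on both WT arrays. Passing in 1 group was enough to be tested, so that the count of higher means and the median are partly set by this filter. SEP3, a floral organ identity factor picked with SEP1 after its values were seen, was at 90.5 and 111 in OE, against 2.52 and 0.555 in WT (6.41, SE 1.03, adjusted p = 0.00945), and lost its call without OE replicate 2 (6.26), while it kept it without WT replicate 2 (5.315) and WT replicate 1 (7.498), WT replicate 2 being the 1 water array where it was not well above background. SEP1 was at 49.7 and 50.8 in OE, against 6.13 and 5.88 in WT (3.06, SE 0.60, adjusted p = 0.0160), and lost it without any 1 array (3.03 to 3.09). LFY and STK were not above background in any group. The uncalled flower gene PI was at 16.5 and 85.7 in OE, against 8.44 and 0.2001 in WT (adjusted p = 0.0876), and like AP1, AP3, SEP2 and SEP3 it was well above background on 1 of the 2 WT arrays. WT replicate 2, which had the lowest values of the mitosis list, was the lower WT array for all 8. Of the 6 shoot meristem genes 3 were tested and 0 were called (limma, with 2 higher at an unadjusted p under 0.05), and WUS, CLV3 and UFO were not above background. The meristem factor STM was at 104 and 19.7 in OE, against 7.27 and 0.249 in WT (5.07, adjusted p = 0.0915), while the sums over the 3 genes, most of it CLV1, were 571 and 461 in OE, against 551 and 421 in WT. The part of flower buds and meristems in the cell cycle result was not tested.

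The other organs were closer. Of 10 root genes 8 were tested, 1 higher and 1 lower, and sums over the 7 measured on all 4 arrays were 1422 and 809 in OE, against 1374 and 459 in WT. The leaf mesophyll genes summed to 59360 and 64500 in OE, against 63020 and 61080 in WT, over 4 genes, and 0 of the 5 on the list were called (limma, 0 also at an unadjusted p under 0.05). Genes of the stomatal lineage summed to 158 and 378 in OE, against 176 and 154 in WT, where MUTE alone was called (1.26, adjusted p = 0.0256) and lost its call without OE replicate 2 or either WT array (0.94, 1.18 and 1.33). All 5 seed genes were below background. Root and leaf genes were thus present in both groups, as the label of whole seedlings says, and seed genes were not.

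Photosynthesis was the pathway with the least difference. Of 22 light-harvesting genes 1 was higher, of 31 subunits of the photosystems and of electron transport 0 were called, and of 19 Calvin cycle genes 0 were called (limma), with medians of -0.02, 0.17 and 0.00. At an unadjusted p under 0.05, 5 of the photosystem genes and 1 of the Calvin cycle genes were higher and 0 were lower, and 28 of the 31 photosystem genes had a higher mean in OE. LHCB2.2, a chlorophyll-binding protein of photosystem II, was at 22685 and 24178 in OE, against 22753 and 21082 in WT (log2 difference 0.10, SE 0.13, adjusted p = 0.601). RBCS1A, the small subunit of Rubisco, was at 20273 and 22761 in OE, against 23142 and 22748 in WT (-0.10, SE 0.15, adjusted p = 0.652). RCA, the Rubisco activase, was at 13904 and 15048 in OE, against 15089 and 15429 in WT (-0.08, adjusted p = 0.750). The arrays of the groups overlapped or lay side by side for these genes. PSBO1, of the water-splitting complex, had a log2 difference of -0.21 (adjusted p = 0.438), PSAF, of photosystem I, one of 0.14 (adjusted p = 0.637), and NPQ4, which drains excess light energy, one of 0.27 (adjusted p = 0.359). The 1 light-harvesting gene that was called, Lhca6, was at 2768 and 3178 in OE, against 1301 and 1314 in WT (1.18, SE 0.33, adjusted p = 0.0404), and lost its call without any 1 array (1.08 to 1.28).

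Chlorophyll genes did differ. Of 19 synthesis genes 5 were higher and 0 were lower (median 0.62, limma, 0 lower also at an unadjusted p under 0.05). The share higher was 26.3%, against 9.87% of all genes. PCB2, which reduces a vinyl side chain of the chlorophyll precursor, was at 1313 and 1834 in OE, against 340.2 and 393 in WT (2.09, SE 0.34, adjusted p = 0.00981). GSA2, which makes the early precursor aminolevulinate, was at 1409 and 2151 in OE, against 551 and 637 in WT (1.55, SE 0.31, adjusted p = 0.0165). CHLI2, a subunit of the magnesium chelatase, was at 599 and 867 in OE, against 282 and 348 in WT (1.201, SE 0.31, adjusted p = 0.0337). OE replicate 2 was the highest array for each of them, and all 5 calls of the list were lost without it (1.85, 1.25 and 0.93 for these 3). GSA2 was also lost without either WT array (1.45 and 1.66), and CHLI2 without any 1 array (0.93 to 1.47). HEMA1, at the start of the pathway, was at 1474 and 1755 in OE, against 1143 and 1485 in WT, and overlapped, GUN5 had a log2 difference of 0.38 (adjusted p = 0.298), and GPRI1 (GLK1), a factor that turns on chloroplast genes, one of 0.22 (adjusted p = 0.512).

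Chlorophyll breakdown went the other way, with 3 of 7 genes lower and 0 higher (median -0.97, limma), and 1 higher at an unadjusted p under 0.05. The share lower was 42.9%, against 9.36% of all genes. NYE1 (SGR1), the stay-green protein that starts the removal of chlorophyll, was at 40.1 and 41.6 in OE, against 186 and 165 in WT (-2.1, SE 0.20, adjusted p = 0.00289). PPH, the pheophytinase, was at 482 and 394 in OE, against 1214 and 934 in WT (-1.29, SE 0.19, adjusted p = 0.00726). Both kept their calls without each array. AT4G11910 was at 31.5 and 14.6 in OE, against 73.1 and 75.8 in WT (-1.79, SE 0.40, adjusted p = 0.0227), and was lost without OE replicate 2 (-1.24) or either WT array (-1.82 and -1.77). The pathway as a whole had 9 calls, between 2 without OE replicate 2 and 8 without OE replicate 1 when a water array was left out, with 4 without WT replicate 1, 3 without WT replicate 2 and 2 under normexp.

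Senescence moved with these genes. Of 5 tested genes 4 were lower in OE (median -4.92), 80% against 9.36% of all genes. SAG13, an early senescence gene, was at 12.04 and 6.94 in OE, against 552 and 974 in WT (-6.33, SE 0.44, adjusted p = 0.00165). NAC6 (ORE1), a factor that drives leaf aging, was at 109.8 and 60.8 in OE, against 2676 and 2287 in WT (-4.92, SE 0.32, adjusted p = 0.00156). NAP, another such factor, was at 61.8 and 60.5 in OE, against 2274 on the 1 WT array with a value (-5.22, SE 0.50, adjusted p = 0.00445). These 3 genes were more than 16-fold lower in OE, and SAG13 and NAC6 kept their calls without each array, while NAP had no value without WT replicate 2. SAG12, the marker of late senescence, was not above background in any group. Of 6 genes that darkness or lack of sugar induces 3 were lower, 50% against 9.36% of all genes. DIN11 had a log2 difference of -8.21 (adjusted p = 0.00423), SEN1 of -3.005 (adjusted p = 0.00835) and BCAT-2 of -3.85 (adjusted p = 0.00790). All 3 kept their calls without each array. The part of senescence in the falls of defence genes was not tested.

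Clock genes, whose levels follow the time of day, differed between the groups, and the labels do not give the clock time of harvest. Of 12 genes that peak towards the evening 11 were higher in OE and 0 were lower (median 1.94, limma, 0 lower also at an unadjusted p under 0.05). The share higher was 91.7%, against 9.87% of all genes. ELF4, part of the evening complex, was at 103 and 97.4 in OE, against 4.63 and 4.60 in WT (4.44, SE 0.25, adjusted p = 0.00150). PRR3 was at 104 and 96.4 in OE, against 4.03 and 3.33 in WT (4.77, SE 0.18, adjusted p = 0.00122). TOC1, the classical evening factor, was at 67.3 and 56.6 in OE, against 25.4 and 26.2 in WT (1.26, SE 0.16, adjusted p = 0.00510). AT4G33980 was at 36.8 and 34.1 in OE, against 2.41 and 1.75 in WT (4.11, SE 0.19, adjusted p = 0.00130). The spread within a group was small for these genes, and 10 of the 11 calls held without each array, ELF3 (1.04, adjusted p = 0.00721) being lost without WT replicate 1, at 0.98.

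Of 11 genes that peak in the morning 4 were lower and 1 was higher (median -0.79), 45.45% in all against 19.2% of all genes. LHY was at 7.42 and 5.82 in OE, against 142 and 124 in WT (-4.33, SE 0.20, adjusted p = 0.00130). CCA1, its partner, was at 53.5 and 42.8 in OE, against 236 and 171 in WT (-2.07, SE 0.27, adjusted p = 0.00586). RVE1 had a log2 difference of -2.45 (adjusted p = 0.00730) and RVE8 of -2.301 (adjusted p = 0.00356). These 4 kept their calls without each array, and the 1 rise, EPR1 (1.22, adjusted p = 0.0457), was lost without either OE array (1.41 and 1.04) or WT replicate 2 (0.85). Many genes of growth, hormones and defence follow the clock, and its part in the results above was not tested.

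Further lists gave smaller groups. Of 11 phosphate starvation genes 6 were higher and 0 were lower (median 1.16, limma, 0 lower also at an unadjusted p under 0.05). The share higher was 54.55%, against 9.87% of all genes. Among them SPX1, a phosphate sensor, was at 694 and 272 in OE, against 46.9 and 84.9 in WT (2.78, SE 0.48, adjusted p = 0.0114). MGDC (MGD3), which swaps phospholipids for galactolipids, was at 77.0 and 36.6 in OE, against 2.97 and 4.35 in WT (3.88, SE 0.54, adjusted p = 0.00661). PS2, a phosphatase, was at 239 and 247 in OE, against 17.9 and 25.0 in WT (3.52, SE 0.70, adjusted p = 0.0162), and was lost without any 1 array (3.28 to 3.76), while SPX1 and MGDC held. Of 16 flavonoid genes 3 were higher and 0 were lower (limma, 2 lower at an unadjusted p under 0.05), with a median of -1.12. This was 18.75% called, against 19.2% of all genes, a share near the background. With only the 4 water arrays, or without either OE array given ABA, 4 of the flavonoid genes were called lower, and 1 was with slide as a random block. FLS1, the flavonol synthase, was at 104 and 77.4 in OE, against 29.0 and 17.61 in WT (1.99, SE 0.39, adjusted p = 0.0161), lost without either OE array (1.78 and 2.201) or WT replicate 2 (1.63). MYB111, which switches flavonol genes on, was at 7.97 and 13.0 in OE, against 1.71 and 1.65 in WT (2.598, SE 0.32, adjusted p = 0.00508). DFR, a reductase of the anthocyanin branch picked after its values were seen, had the lowest difference of the list without a call, at 1.29 and 5.86 in OE, against 247 and 97.6 in WT (-5.82, SE 2.06, adjusted p = 0.0780). Of 7 tested heat shock genes 1 was called, HSP101, at 1.04 (adjusted p = 0.0113), and it was lost without OE replicate 2 (0.86) or WT replicate 2 (0.97). The share called was 14.3%, against 19.2% of all genes.

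Over all genes, the largest rises among genes above background in both groups were led by ADS4, a gene of the acyl-lipid desaturase family, at 397 and 59.8 in OE, against 2.90 and 5.33 in WT (5.29, SE 0.99, adjusted p = 0.0140), lost without WT replicate 1 at 4.86. AT5G20740 followed, at 658 and 310.1 in OE, against 13.3 on the 1 WT array with a value (5.08, SE 0.78, adjusted p = 0.0119). CYP71A25, a cytochrome P450, was at 40.2 and 40.5 in OE, against 2.35 and 2.06 in WT (4.197, SE 0.25, adjusted p = 0.00155). The other rises were NIMIN1, PRR3, ELF4 and AT4G33980, given above, and AT5G33370, AT4G26790, AT3G28500, AT1G23205 and AT1G60590, between 4.13 and 4.51. Of the 12 rises 3 were thus evening clock genes, and 8 kept their calls without each array, AT5G20740 having no value without WT replicate 2, AT5G33370 being lost without OE replicate 2 (3.84) and AT3G28500 without either OE array (3.74 and 4.76). CYP96A15, an enzyme of wax synthesis, was not well above background in WT and was at least 125-fold higher in OE, at 1039 and 15.0, with measured signals of 0.644 and 0.401 in WT. Its OE arrays differed widely, and its call was lost without either WT array (8.28 and 7.60).

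Among genes well above background on both arrays of both groups, the falls were led by the defensins PDF1.2c and PDF1.3. PDF1.2b, picked after its values were seen, and PDF1.2 had larger differences, of -10.99 and -10.29, with 1 OE array not well above background. AACT1, an acyltransferase, was at 8.67 and 6.31 in OE, against 2564 and 6390.4 in WT (-9.10, SE 0.80, adjusted p = 0.00260). DIN11, a gene induced in the dark, was at 2.76 and 6.76 in OE, against 957 and 1716 in WT (SE 0.94). GSTU4, a glutathione transferase, was at 2.33 and 2.27 in OE, against 95.9 and 155 in WT (-5.73, SE 0.31, adjusted p = 0.00145). PLA2A, a patatin-like lipase induced by pathogens, was at 113 and 80.8 in OE, against 3343 and 6171 in WT (-5.57, SE 0.34, adjusted p = 0.00155). The 12 falls also held SAG13, AT3G23550, AT4G16260, AT1G15125, AT3G15356 and MDHAR, a reductase of ascorbate recycling, with log2 differences between -6.64 and -5.60. Of these, 10 kept their calls without each array, MDHAR being lost without either OE array (-5.58 and -5.62) or WT replicate 1 (-4.59), and AT1G15125 having no value without WT replicate 2. DIR5, a dirigent protein gene, was not well above background in OE and was at least 219.9-fold lower there, with measured signals of 0.277 and 0.269 in OE and 290.2 and 208 in WT (adjusted p = 0.00122).

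The same lists were read under ABA, where the 4 arrays are other ones, while the spread is estimated from all 8 arrays and the OE arrays of both treatments lay on 1 slide. Under ABA 841 of 19477 genes were called higher (4.32%) and 1094 lower (5.62%). Of the genes called in water, 538 were called higher in both treatments, 792 were called lower in both and 9 were called in opposite directions. In defence 25 genes were lower under ABA and 0 were higher, 22 of them lower in both. In hormones 9 were higher and 16 were lower, with 3 higher and 9 lower in both. In the cell cycle 9 were higher under ABA, against 77 in water, with 8 higher in both, and the median was 0.70 under ABA, against 1.18 in water. In photosynthesis 1 was higher and 4 were lower. The evening clock genes had a larger median under ABA (3.16) than in water (1.94), and the senescence genes a smaller fall (-2.58, against -4.92).

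None of these differences between the treatments passed the test of the interaction. Over all tested probes 0 were called for it (limma), with a smallest adjusted p of 0.0953, while 1255 genes had an unadjusted p under 0.05 and at least a 2-fold difference of differences. Of the cell cycle genes 16 of 136 had an unadjusted p under 0.05, of the evening clock genes 11 of 12, of defence 12 of 104, of hormones 41 of 199, of photosynthesis 9 of 98 and of all genes 2320 of 19477. A smaller count of calls under ABA therefore does not show a smaller difference.

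**Figure D4:**
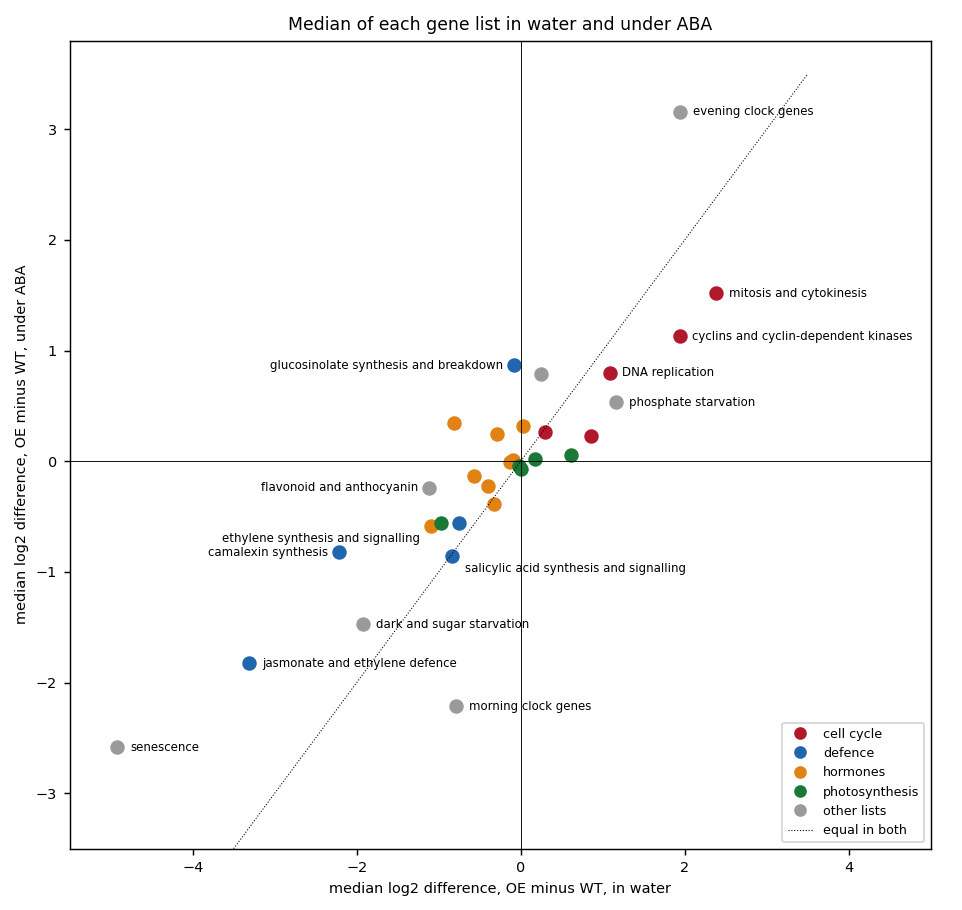
Median log2 difference of OE minus WT of each gene list in water (x axis) and under ABA (y axis), 1 point per list, coloured by pathway, with a dotted line where both are equal. The lists of organ markers are not plotted. Of the plotted lists the senescence list lies lowest in water at -4.92, the mitosis list highest at 2.39, and the evening clock list lies above the dotted line at 1.94 in water and 3.16 under ABA.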

How the data were processed

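RNA was hybridised to Agilent arrays with 1 colour, 1 array per sample. The deposited scanner files hold spot intensities, which the authors made with Agilent Feature Extraction 10.7.3.1 and which are background-subtracted and detrended within an array but not scaled between arrays. A deposited table of log2 values, normalized by the authors with MAS, per the methods, in steps not described further there (column medians 7.587 to 7.588, correlation of 0.9995 to 0.9999 with the scanner values below), served as an alternative. No depth exists for arrays, and their number, 2 per group, limits the precision.

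The log2 processed signal of each array was centred on its 75th percentile, outlier spots were left out and spots of 1 probe were averaged. Printed signals are this value as a linear number with the 75th percentile at 100, and signals are not compared between probes. Of 43603 gene probes, 31267 were tested, each of which rose well above background on every array of 1 group or more. A linear model with 4 group means was fitted over 8 arrays (limma 3.58.1, R 4.3.3, lmFit and eBayes), with Benjamini-Hochberg adjustment over all tested probes. A gene not well above background in 1 group is given as at least N-fold, against the higher of its own signal and the lowest signal counted as above background on that array. Transcript accessions matched 34394 probes to 25427 locus tags (RefSeq, TAIR10.1), 19477 of them tested, and the probe with the highest mean stood for its locus tag. The calculation was tested on simulated data.

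Members and gene lists were chosen with earlier results of these data known. Named genes were fixed landmarks, up to 3 called members per list and direction, and 12 rises and 12 falls over all genes, above background on both arrays of both water groups. Alternatives were quantile and cyclic loess scaling, normexp background correction with an offset of 50 on median signals (no mean signal was in the files used), the deposited table, other filters and folds, only the water arrays, a replicate block, slide as a random block, the t-test of the methods, and each array left out.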

Additional observations from a re-analysis of the deposited data

Results flagged for a closer look

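For 4 named genes the difference between OE and WT had 1 sign in water, with no overlap of the arrays, and the opposite sign under ABA, and the interaction had an unadjusted p under 0.05. None passed the adjustment over all tested probes (limma), so that no opposite response is shown.

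CKX6, a cytokinin oxidase, was at 102.3 and 99.9 in OE, against 175.5 and 251 in WT, in water, and at 107.1 and 103 in OE, against 64.4 and 51.7 in WT, under ABA. The water difference minus the ABA difference was -1.92 on the log2 scale (unadjusted p = 0.00065, adjusted p = 0.155, limma). The OE arrays were alike in both treatments, and the WT arrays were not.

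NCED3, of ABA synthesis, was at 13.7 and 21.1 in OE, against 37.3 and 21.6 in WT, in water, and at 50.02 and 54.9 in OE, against 18.7 and 17.1 in WT, under ABA, where it was called higher (1.55, adjusted p = 0.0283, limma). The difference between the treatments was -2.29 (adjusted p = 0.193).

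LTI78, a target of ABA, was at 67.6 and 148.5 in OE, against 1265 and 158 in WT, in water, and at 5323 and 3412 in OE, against 1404 and 1774 in WT, under ABA. The difference between the treatments was -3.59 (adjusted p = 0.395, limma), with the first WT array in water far above the other.

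GUN5, a subunit of the magnesium chelatase, had a log2 difference of 0.38 in water and of -0.59 under ABA, which is 0.96 between the treatments (adjusted p = 0.395, limma), with neither called.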

How the results depend on the processing

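No called named gene turned its sign under any alternative run. Over all probes only calls were compared, and no called probe was called in the opposite direction in any run. Of the 142 named genes 113 were called. Between 101 and 113 of them kept their call under other scalings, filters on dim probes, the deposited table, only the water arrays and the blocks, and 69 under normexp. Probes called were 2641 higher and 3312 lower, and genes called were 42 in defence, 41 in hormones, 77 in the cell cycle and 9 in photosynthesis. In the same order these were 654, 944, 25, 18, 20 and 2 with normexp, where low signals are shrunk. With no minimum fold 4390 probes were higher, 5336 were lower and 64 hormone genes were called. With a 4-fold minimum 729 probes were higher and 1253 lower, with 18 hormone, 34 cell cycle and 2 photosynthesis genes. The t-test of the methods, unadjusted, gave 889, 1402, 13, 17, 17 and 3, and after adjustment 0 of each, with 4835 probes at an unadjusted p under 0.05. Leaving out 1 of the 8 arrays gave ranges of 997 to 2668 higher and 1847 to 3289 lower probes, and of 29 to 42 defence, 24 to 46 hormone, 9 to 77 cell cycle and 2 to 10 photosynthesis genes, with all lowest counts without OE replicate 2, where the lone array is assumed to vary like the other groups. The share of rises among the calls was 44.4%, and it was 35.1% without OE replicate 2 and 35.4% without WT replicate 2. With the replicate number as a replicate block, 2581 probes were higher and 3177 lower, with 37, 41, 71 and 9 genes in the 4 pathways, and the numbers did not pair the arrays (correlations of deviations between -0.18 and 0.11). With slide as a random block 2966 were higher and 3621 lower. Why these settings move the counts was not tested beyond their construction. Signals near background limit the folds of PR1, the defensins and the flower genes.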
